A study of Homo sapiens with 13 samples.

Results

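The enzymes that turn acetyl-CoA into squalene are described here from the messenger RNA of AC16 cells, through the rows of 9 genes (ACAT2, HMGCS1, MVK, PMVK, MVD, IDI1, GGPS1, FDPS and FDFT1) among 63241 gene rows in each of 13 count tables. The genes were chosen by their place in the pathway and matched by Ensembl ID to symbol, 1 ID each. All 9 passed the filter on low counts, which left 16756 genes tested. The lowest count of any of them in any library was 129, for GGPS1.

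AC16 is an established human line, a fusion of ventricular cardiomyocytes with transformed fibroblasts. All libraries carry the genotype label wildtype, and they form 4 groups: 3 control libraries, 3 from cells given FCCP, 4 from preconditioned cells, and 3 from cells preconditioned and then given FCCP (preconditioning+FCCP). FCCP is an uncoupler that carries protons across the inner mitochondrial membrane, and preconditioning was optogenetic, with a mitochondrial construct called mOpto. Dose, duration and light settings are not given in the labels, which do not say whether the control and FCCP cells carried the construct. The labels do not say that replicates were separate cultures, so p-values measure only how far these libraries differ, possibly for technical reasons.

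Libraries held 14970803 to 20636229 gene counts. Of 12 cardiomyocyte markers, 4 had enough reads to be tested, and TNNT2, the cardiac troponin T gene, had no read in any library. All 8 fibroblast markers were tested. Their summed level was 3707 to 7239 CPM in control, FCCP and preconditioning libraries and 940.2 to 1229 CPM in preconditioning+FCCP. These sums were scaled by library totals alone, unlike the CPM of single genes below, which are scaled by TMM. Reads aligned to more than 1 place, as a share, part the libraries at their largest gap into a higher set (7.13% to 11.5%; control 1 and 2, all FCCP libraries, preconditioning+FCCP 3) and a lower set (3.16% to 5.22%; control 3, all preconditioning libraries, preconditioning+FCCP 1 and 2). Because the FCCP group lies in 1 set and the preconditioning group in the other, set and treatment cannot be told apart between them. Fits within a set are given beside the results below. Libraries of a group were also compared in pairs over tested genes, by chi-square per degree of freedom. Control 3 gave 168 and 154, against 22.3 between control 1 and 2. FCCP 1 gave 80.7 and 105, against 22.6 between FCCP 2 and 3. Preconditioning+FCCP 3 gave 126 and 88.8, against 28.7 between preconditioning+FCCP 1 and 2. Preconditioning pairs gave 3.32 to 32.1. Why some libraries stood apart from their replicates was not tested.

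The mevalonate pathway begins when ACAT2, the cytosolic thiolase, joins acetyl-CoA units and HMGCS1 adds another to form HMG-CoA, which is reduced to mevalonate. The kinases MVK and PMVK phosphorylate mevalonate, the decarboxylase MVD makes isopentenyl diphosphate, and the isomerase IDI1 balances it with dimethylallyl diphosphate. FDPS joins these units into farnesyl diphosphate, GGPS1 lengthens that to geranylgeranyl diphosphate for protein prenylation, and FDFT1 joins farnesyl units into squalene, the first product committed to sterols. Many genes of the pathway are known targets of the transcription factor SREBP-2, which is released from the endoplasmic reticulum when sterols are low and acts at promoters together with NF-Y, the factor that binds the CCAAT box.

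The 250 bases before the annotated starts of 7 of the 9 genes were read from RefSeq promoters (GRCh38.p14), and stretches with CCAAT boxes are shown from genes that moved together and from GGPS1, which did not move with them. Motifs were searched on both strands. The box CCAAT lay before at least 1 start of HMGCS1, MVK, MVD, IDI1, FDPS and GGPS1, and not before PMVK, against 37% of 27305 genes with such windows and 32% of 35116 windows. Before MVK there were 5 boxes, a number reached in 0.319% of windows. MVD and FDPS had 3, a number reached in 2.93% of windows, and at 1 of the 3 starts of IDI1 the count of 3 includes a pair of boxes that overlap on opposite strands. The GC box, spelled GGGCGG, was before at least 1 start of all 7 genes, against 46.2% of genes. The SREBP core, searched as TCACNCCAC, was in none of these windows and in 0.883% of all, which says only that these letters are not there. An E-box, spelled CACGTG, was in none of them either, and in 6.34% of all windows. Only stretches outside GENCODE 29 exons are printed, so the boxes of a window are not all in them, 5′ to 3′ on the gene's strand, with CCAAT or its reverse complement ATTGG in capitals. Those of MVK and PMVK lie in exons and are not printed.
HMGCS1 (GRCh38.p14 chr5:43313513-43313662, minus strand): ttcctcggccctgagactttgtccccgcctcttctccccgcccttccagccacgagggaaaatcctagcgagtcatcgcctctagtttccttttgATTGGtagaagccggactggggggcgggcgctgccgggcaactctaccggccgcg
MVD (GRCh38.p14 chr16:88663162-88663297, minus strand): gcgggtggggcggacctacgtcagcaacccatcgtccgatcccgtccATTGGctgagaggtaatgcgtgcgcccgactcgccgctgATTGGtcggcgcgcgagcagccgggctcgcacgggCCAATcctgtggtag
IDI1 (GRCh38.p14 chr10:1049171-1049369, minus strand): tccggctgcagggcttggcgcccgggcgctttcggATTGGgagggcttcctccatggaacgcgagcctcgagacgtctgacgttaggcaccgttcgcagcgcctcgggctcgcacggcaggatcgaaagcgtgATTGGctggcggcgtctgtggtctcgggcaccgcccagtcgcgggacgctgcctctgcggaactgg
FDPS (GRCh38.p14 chr1:155308616-155308747, plus strand): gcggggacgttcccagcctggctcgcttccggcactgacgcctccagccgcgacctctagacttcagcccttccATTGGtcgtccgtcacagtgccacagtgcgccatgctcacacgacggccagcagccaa
GGPS1 (GRCh38.p14 chr1:235328320-235328398, plus strand): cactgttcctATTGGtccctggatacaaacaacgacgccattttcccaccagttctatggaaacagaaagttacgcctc

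Levels are given as CPM, gene counts scaled to a common library size. Summed over the 9 genes, control 1 to 3 stood at 371, 482 and 384 CPM. FCCP 1 to 3 stood at 627, 1107 and 1609 CPM, and preconditioning 1 to 4 at 1633, 1601, 1165 and 1586 CPM. Preconditioning+FCCP 1 to 3 stood at 586, 457 and 519 CPM. The sum was thus higher in every FCCP and preconditioning library than in any control, and lower with the combined treatment than in any library given FCCP or preconditioning alone. FCCP 1 was the lowest of the FCCP libraries, and control 3, which lies in the other set than control 1 and 2, was within their range. Mitochondrially encoded genes took 9.58%, 8.95% and 3.00% of the counts in control 1 to 3 and 6.49%, 1.94% and 1.55% in FCCP 1 to 3. They took 1.00% to 1.85% with preconditioning, and 1.33%, 2.32% and 6.42% in preconditioning+FCCP 1 to 3. Among the FCCP libraries the summed level was thus lowest where this share was highest, whereas control 3 and preconditioning+FCCP 1 and 2 had low sums at shares of 1.33% to 3.00%. With these genes left out before scaling, the number of the 9 genes called was the same in all 6 comparisons, and the part of this share in the levels was otherwise not tested.

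**Figure D1:**
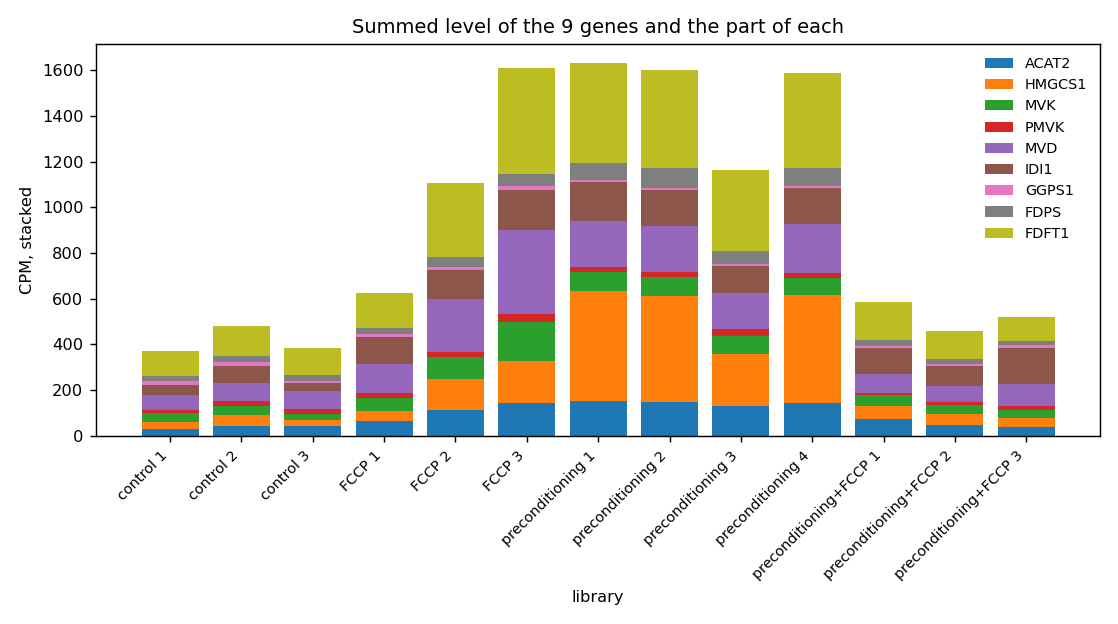
Level of the 9 genes in each library (x axis), stacked as CPM (y axis, from 0), with a colour for each gene. The sums run from 371 to 482 CPM in control, 627 to 1609 in FCCP, 1165 to 1633 in preconditioning and 457 to 586 in preconditioning+FCCP, and HMGCS1 takes a larger part with preconditioning.

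The first steps, ACAT2 and HMGCS1, rose with either treatment alone. ACAT2 was at 28.0, 42.9 and 41.9 CPM in control and at 65.5, 111 and 144 CPM with FCCP. It was at 150.4, 147, 129 and 143 CPM with preconditioning and at 72.5, 48.2 and 38.1 CPM with both. FCCP and preconditioning libraries all lay above control, and the combined group overlapped control. ACAT2 rose by 1.51 ± 0.28 on the log2 scale (SE) with FCCP (edgeR adjusted p = 0.0170) and by 1.92 ± 0.27 with preconditioning (adjusted p = 0.00151). HMGCS1 was at 33.3, 46.9 and 27.8 CPM in control and at 43.5, 139 and 184 CPM with FCCP. With preconditioning it was at 483, 464, 230.4 and 472 CPM, and with both treatments at 60.2, 45.7 and 37.8 CPM. FCCP 1 fell within the control range, whereas every preconditioning library was above every other library. The HMGCS1 change with preconditioning, 3.52 ± 0.42, was the largest of the 9 genes (adjusted p = 0.000596) and higher than that of 99.9% of genes tested. With FCCP it was 1.76 ± 0.41 (adjusted p = 0.0305), and that call ended without control 1 or 3, FCCP 2 or 3, or preconditioning 2. HMGCS1 made up 8.65% ± 1.27 (SD, n = 3) of the summed level in control, 10.3% ± 2.96 (n = 3) with FCCP, 27.0% ± 4.84 (n = 4) with preconditioning and 9.19% ± 1.66 (n = 3) with both.

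The steps from mevalonate to the isoprene units were uneven. MVK was at 36.8, 42.4 and 25.3 CPM in control and at 55.4, 93.3 and 169.8 CPM with FCCP. It was at 84.4, 84.2, 79.2 and 74.7 CPM with preconditioning, and at 44.9, 42.4 and 38.9 CPM with both. MVD was at 68.6, 76.3 and 79.1 CPM in control and at 128, 229 and 368 CPM with FCCP. It stood at 201, 199, 156 and 217 CPM with preconditioning and at 81.6, 70.2 and 99.1 CPM with both. For MVK and MVD the ranges of FCCP and of preconditioning overlapped each other and lay above control. With FCCP, MVK rose by 1.61 ± 0.30 (adjusted p = 0.0185) and MVD by 1.69 ± 0.28 (adjusted p = 0.0123), and with preconditioning by 1.21 ± 0.28 and 1.37 ± 0.27 (adjusted p = 0.00822 and 0.00383). Of the 9 genes, ACAT2, MVK and MVD held the FCCP call without each of the 13 libraries in turn. The MVK change with preconditioning, fitted with a term for library set, was 1.39 ± 0.38 with an adjusted p of 0.0612.

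PMVK, the kinase between them, was called with neither treatment alone. It was at 13.2, 20.5 and 22.9 CPM in control, 21.3, 24.6 and 34.1 CPM with FCCP, and 18.9, 22.5, 29.6 and 22.0 CPM with preconditioning. With both treatments it was at 11.6, 10.2 and 13.7 CPM, below every library given either treatment alone. Its change was 0.50 ± 0.25 with FCCP (adjusted p = 0.277) and 0.30 ± 0.24 with preconditioning (adjusted p = 0.373). IDI1 was at 42.3, 74.4 and 34.2 CPM in control and at 119, 128 and 176 CPM with FCCP. It was at 172, 159, 119 and 155 CPM with preconditioning, and at 113, 88.2 and 156 CPM with both. All 10 treated libraries lay above all control libraries for IDI1, and the 3 treated groups overlapped. IDI1 rose by 1.49 ± 0.28 with FCCP (adjusted p = 0.0185), a call that ended without FCCP 3, and by 1.59 ± 0.27 with preconditioning (adjusted p = 0.00236).

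Of the prenyl transferases that follow, FDPS and FDFT1 rose with preconditioning, whereas GGPS1 did not. FDPS was at 21.8, 27.6 and 26.2 CPM in control and at 24.6, 43.4 and 52.6 CPM with FCCP, where FCCP 1 was within the control range. It was at 74.5, 88.8, 59.5 and 79.3 CPM with preconditioning, above every other library, and at 27.7, 22.4 and 17.1 CPM with both. Its change was 0.67 ± 0.26 with FCCP (adjusted p = 0.154), and without FCCP 1 it was 0.90 ± 0.22 and called (adjusted p = 0.0335). With preconditioning FDPS rose by 1.58 ± 0.25 (adjusted p = 0.00190). FDFT1, at the entry to sterols, was at 107, 133 and 119 CPM in control and at 156, 324 and 463 CPM with FCCP. It stood at 440.3, 429, 355 and 414 CPM with preconditioning and at 166, 118 and 104 CPM with both. Libraries given FCCP or preconditioning alone were all above control for FDFT1, with rises of 1.39 ± 0.29 (adjusted p = 0.0224) and 1.77 ± 0.28 (adjusted p = 0.00200). The FCCP call of FDFT1 ended without control 1, FCCP 2 or FCCP 3.

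GGPS1, which leads to protein prenylation, had another pattern. It was at 19.7, 17.5 and 8.07 CPM in control, 13.4, 15.4 and 16.7 CPM with FCCP, 7.54, 7.67, 7.75 and 8.63 CPM with preconditioning, and 8.34, 10.9 and 13.7 CPM with both. Preconditioning libraries were low, and control 3 lay within their range. The change with preconditioning was −0.93 ± 0.27 (adjusted p = 0.0226), while within the lower set, with control 3 as the only control, it was −0.02 ± 0.24 (adjusted p = 0.955). With the set as a term it was −0.28 ± 0.25 (adjusted p = 0.583). The call also ended without control 1, control 2 or any of preconditioning 1 to 3, so it held in 17 of 26 alternatives. With FCCP the change was 0.01 ± 0.29 (adjusted p = 0.994) and ranged from −0.32 to 0.22 over the alternatives. Of its annotated exon bases 41% overlap other genes (TBCE and ARID4B), and reads in such parts may have been left out or assigned to either gene.

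**Figure D2:**
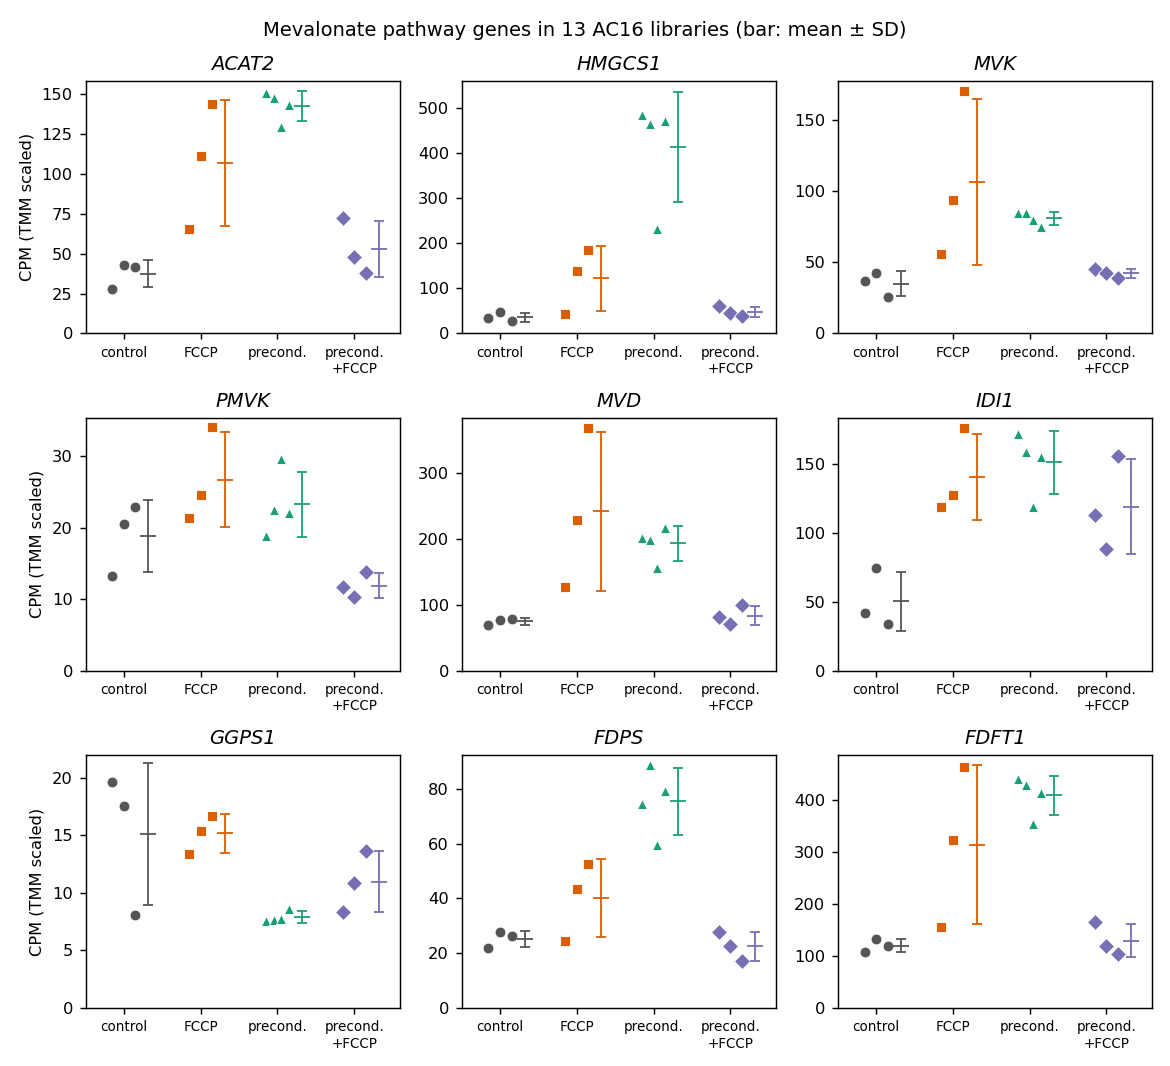
CPM of each gene (y axes from 0, scaled per gene) by treatment group (x axis), with a point for each library and a bar for the mean ± SD of 3 or 4 libraries. HMGCS1 and FDPS stand highest with preconditioning, IDI1 stays above control in all treated groups, and GGPS1 is lowest with preconditioning together with control 3.

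Per kilobase of annotated exon (GENCODE 29), FDFT1 and MVD were the highest in control, with 23.0 ± 2.50 and 15.8 ± 1.15 CPM per kb (SD, n = 3), and GGPS1 the lowest with 3.96 ± 1.62. PMVK (14.7 ± 3.92), IDI1 (11.6 ± 4.90) and ACAT2 (8.74 ± 1.94) followed MVD, then HMGCS1 (7.66 ± 2.09), FDPS (6.78 ± 0.82) and MVK (5.37 ± 1.35), where each gene from MVD down to GGPS1 was within the summed SD of its neighbour and FDFT1 was not. With preconditioning HMGCS1 stood first, at 87.7 ± 25.9 CPM per kb (n = 4), beside FDFT1 at 78.7 ± 7.29, from which it did not differ beyond the spread. With both treatments IDI1 (27.4 ± 7.92) and FDFT1 (24.9 ± 6.20) led, also within their spread. The FDPS level is uncertain, because 8 annotated pseudogenes resemble it and reads aligned to several places are not counted, as is that of ACAT2, of whose exon bases 52.3% overlap SOD2, TCP1 and a noncoding gene.

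Counted over the pathway, FCCP raised 6 of 9 genes, where 1.6% of all 16756 genes were called higher and 1.92% lower, and no member was called lower. Preconditioning raised 7 of 9 and lowered GGPS1, the latter not under all alternatives, where 10.5% of all genes were called higher and 13% lower. The median change of the 9 genes was 1.49 with FCCP and 1.58 with preconditioning, against −0.04 and −0.02 over all genes. Groups did not overlap in 5 genes with FCCP and in 7 with preconditioning, all higher, where 8.84% and 19.4% of all genes did so upwards. Both comparisons use the same control libraries. The FCCP count was 0 with the 2 compared groups alone (7 at an unadjusted p under 0.05) and 3 without FCCP 3, and within the higher set, where the median was 1.42, it was 0 (8 at an unadjusted p under 0.05).

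Adding FCCP to preconditioned cells went the other way. Against preconditioning alone, 7 of 9 genes fell, where 19.2% of all genes were called lower. HMGCS1 fell by 3.11 ± 0.42 on the log2 scale (adjusted p = 7.2e-05), FDPS by 1.75 ± 0.25 (adjusted p = 0.000117) and FDFT1 by 1.66 ± 0.28 (adjusted p = 0.000404). ACAT2 (−1.43 ± 0.26), MVD (−1.21 ± 0.27), PMVK (−0.97 ± 0.24) and MVK (−0.94 ± 0.28) fell as well, with adjusted p from 0.000711 to 0.0152. In these 7 genes every combined library lay below every preconditioning library, which 26.2% of all genes did. These 7 calls held without each library in turn. IDI1 (−0.35 ± 0.26, adjusted p = 0.302) and GGPS1 (0.47 ± 0.27, adjusted p = 0.180) did not pass, though within the lower set IDI1 was called lower (−0.59 ± 0.16, adjusted p = 0.00654).

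Against FCCP alone, preconditioning+FCCP was also lower in 7 of 9 genes, where 17.7% of all genes were called lower. The largest falls were those of MVD (−1.53 ± 0.28, adjusted p = 0.00119), HMGCS1 (−1.35 ± 0.40, adjusted p = 0.0170) and MVK (−1.33 ± 0.30, adjusted p = 0.00349). FDFT1 (−1.28 ± 0.29), PMVK (−1.17 ± 0.26), ACAT2 (−1.01 ± 0.27) and FDPS (−0.84 ± 0.26) followed, with adjusted p from 0.00315 to 0.0193. Only MVK, PMVK and MVD had groups that did not overlap, which 21.3% of all genes had downwards. The HMGCS1 and FDPS calls ended without FCCP 2, FCCP 3, preconditioning+FCCP 2 or preconditioning+FCCP 3, and ACAT2's without FCCP 3. Fitted with a term for library set, HMGCS1 gave −1.34 ± 0.54 (adjusted p = 0.0892). With preconditioning+FCCP 3 as the only combined library of the higher set, the median there was −1.28 and none was called (7 at an unadjusted p under 0.05).

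Against control, 1 gene of 9 was called with the combined treatment, where 15% of all genes were called higher and 16.2% lower. That count is near the share of all genes, and a gene not called is not shown to be unchanged. That gene was IDI1, higher by 1.24 ± 0.28 (adjusted p = 0.00431), and its call held without each library in turn. Within the higher set its change was 1.46 ± 0.35 (adjusted p = 0.0608) and within the lower set 1.56 ± 0.24 (adjusted p = 0.000436). The other 8 ran from −0.67 ± 0.25 for PMVK (adjusted p = 0.0561) to 0.49 ± 0.27 for ACAT2 (adjusted p = 0.178). Within the lower set MVK was called higher (0.79 ± 0.17, adjusted p = 0.00335) and PMVK lower (−1.06 ± 0.25, adjusted p = 0.00634). PMVK was called lower under 8 of 27 alternatives, among them DESeq2 and the fit without control 1. Without control 3, FCCP 1 and preconditioning+FCCP 3 together, ACAT2 was called higher (0.72 ± 0.21, adjusted p = 0.00993). In the same fit GGPS1 (−0.99 ± 0.21, adjusted p = 0.000918) and PMVK (−0.67 ± 0.25, adjusted p = 0.0365) were called lower. The median of the 9 genes was 0.16, against −0.04 over all genes. Whether IDI1 differs from the other members in this comparison was not tested. In the combined group the summed fibroblast markers were also lower than in every other library, and the part of this in the levels of the 9 genes was not tested. Fewer cells of a type and less RNA per cell cannot be told apart in such bulk libraries.

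**Figure D3:**
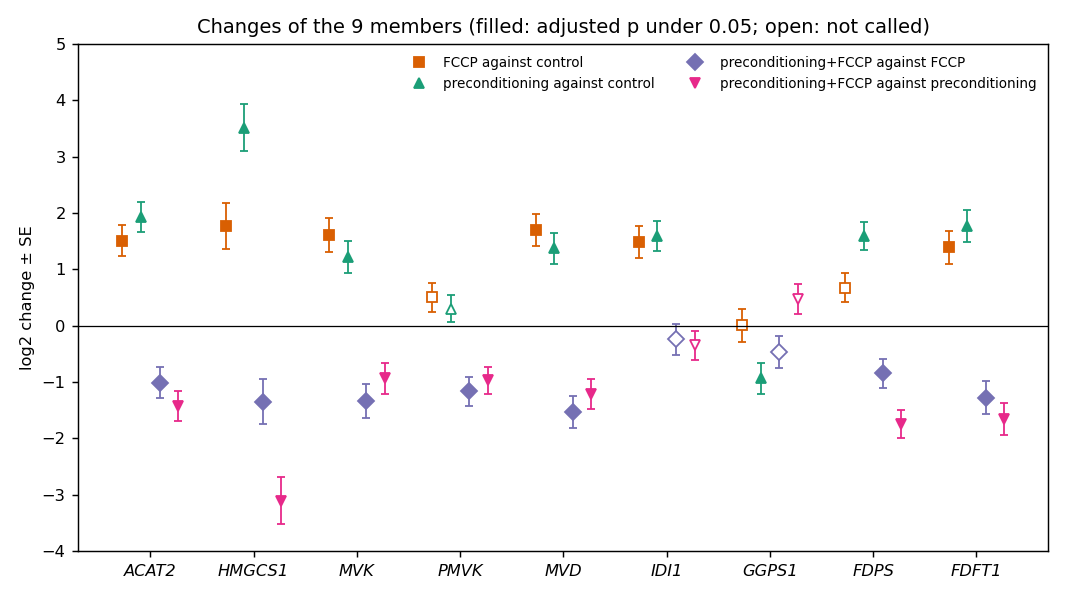
Log2 change ± SE (y axis) of each gene (x axis) in 4 comparisons, filled where the adjusted p was under 0.05 and open otherwise. FCCP or preconditioning alone gave rises up to 3.52, and the combined treatment against a single one gave falls down to −3.11. Open symbols mark FDPS with FCCP, PMVK with either single treatment, IDI1 in both comparisons of the combined treatment, and GGPS1 in all but preconditioning against control.

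The difference between the FCCP effect with and without preconditioning, the interaction, was negative and called in 8 of 9 genes, where 9.6% of all genes were called negative. In these 8 genes the estimated FCCP change was positive without preconditioning and negative with it. The interaction was −4.87 ± 0.58 for HMGCS1 (adjusted p = 0.000316), −3.05 ± 0.41 for FDFT1 (adjusted p = 0.000477) and −2.94 ± 0.38 for ACAT2 (adjusted p = 0.000467). It was −2.90 ± 0.39 for MVD, −2.55 ± 0.41 for MVK, −2.43 ± 0.36 for FDPS, −1.83 ± 0.38 for IDI1 and −1.47 ± 0.35 for PMVK, with adjusted p from 0.000504 to 0.00963. GGPS1 gave 0.47 ± 0.40 (adjusted p = 0.433). The 8 calls held in each of 24 alternatives, including each library left out in turn and the library set as a term. The median was −2.55 against 0.07 over all genes, and the interaction draws on all 4 groups, so it is not independent of the comparisons above.

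**Figure D4:**
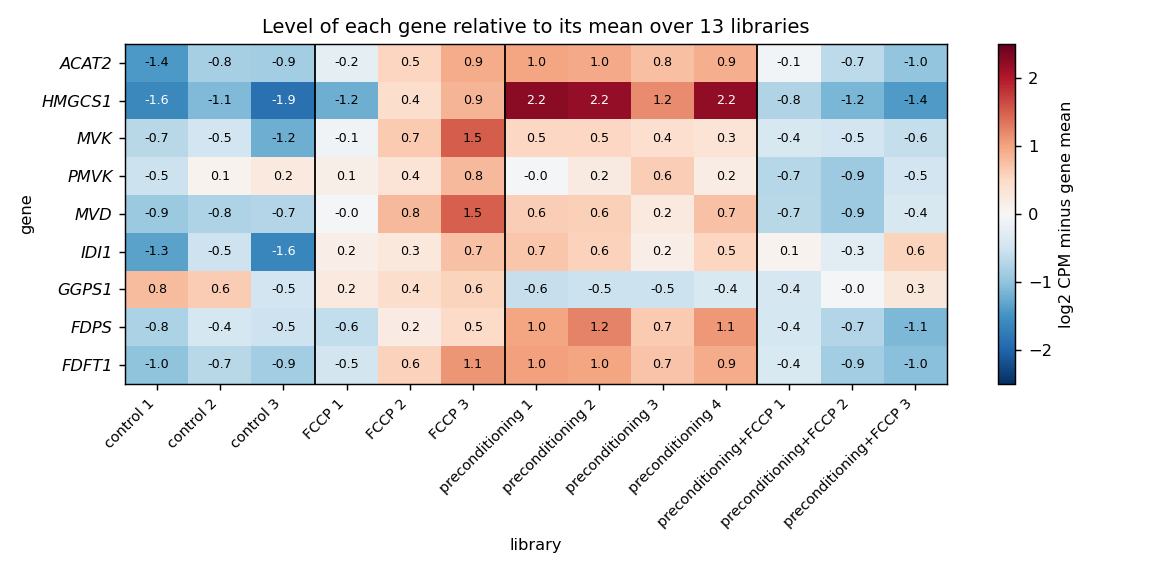
Log2 CPM of each gene (rows) in each library (columns) minus the gene's mean over 13 libraries, printed in each cell, with lines between the treatment groups. ACAT2, HMGCS1, MVK, MVD, FDPS and FDFT1 are below 0 in every control and preconditioning+FCCP library and above 0 in every preconditioning library.

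Each gene's centred profile was also compared with the mean profile of the other 8 as the root mean square difference over 13 libraries. FDFT1 (0.26), MVD and MVK (0.28 each), ACAT2 (0.32) and FDPS (0.36) lay close to it, IDI1 (0.53) and PMVK (0.55) farther, and HMGCS1 and GGPS1 (1.04 each) farthest. HMGCS1 differed by its range, 4.11 on the log2 scale between preconditioning 1 and control 3, and GGPS1 by its direction. Among 10974 other genes of at least 5 mean CPM, the 5 most like the mean of the 9 were NSDHL (0.25), a sterol enzyme after squalene, CNN3-DT (0.25), SREBF2 (0.27), which encodes SREBP-2, PAQR4 (0.27) and ACOT1 (0.29). NSDHL changed by 1.03 ± 0.24 with preconditioning and by −1.86 ± 0.34 in the interaction. It was picked by its likeness over these same libraries, so these changes are no separate support and are given without p-values. These libraries share treatment groups and the 2 library sets, so likeness here is a description.

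The sterol enzymes after squalene rose in 4 of 12 cases with FCCP and in 9 of 12 with preconditioning, and fell in 9 of 12 when FCCP was added to preconditioning, where 1.6%, 10.5% and 19.2% of all genes were called in these directions. With FCCP, DESeq2 called 8 and limma-voom 3. Their medians were 0.91, 1.35 and −1.29. DHCR7, which makes cholesterol in the last step of one branch, rose by 1.96 ± 0.38 with FCCP (adjusted p = 0.0185) and by 2.36 ± 0.37 with preconditioning (adjusted p = 0.00186). LSS, the cyclase that forms lanosterol, rose by 1.87 ± 0.25 with preconditioning and fell by 2.49 ± 0.26 on the log2 scale with FCCP added (adjusted p = 0.00117 and 1.18e-05). With both treatments against control, SC5D was higher (1.14 ± 0.19, adjusted p = 0.000759) and LBR lower (−0.76 ± 0.23, adjusted p = 0.0233). The interaction was called, and negative, in 9 of 12, where 9.6% of all genes were called negative.

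Of the genes that supply cytosolic acetyl-CoA, none of 3 was called by edgeR with FCCP, where 2 had an unadjusted p under 0.05, DESeq2 called 1 and limma-voom 0. ACLY, which splits citrate, was at 217 to 260.2 CPM in control, 495 to 583 CPM with preconditioning and 138 to 189 CPM with both. It rose by 1.13 ± 0.17 with preconditioning (adjusted p = 0.00154) and was lower than control with both treatments (−0.54 ± 0.17, adjusted p = 0.0273). The citrate carrier gene SLC25A1 was also lower with both treatments than in control (−0.90 ± 0.23, adjusted p = 0.00984). All 3, with the acetyl-CoA synthetase gene ACSS2, had a negative interaction that was called, where 9.6% of all genes were called negative. Of 7 sterol sensing genes 1 rose with FCCP and 4 with preconditioning, and 4 fell when FCCP was added, beside the same shares of all genes (1.6%, 10.5% and 19.2%). With FCCP, DESeq2 called 2 of them and limma-voom 0. INSIG1, which holds SREBP in the endoplasmic reticulum, was at 35.2 to 115 CPM in control, 99.8 to 1065 CPM with FCCP, 702 to 1182 CPM with preconditioning and 77.1 to 159 CPM with both. SREBF2 rose by 1.41 ± 0.28 with preconditioning (adjusted p = 0.00391) and by 0.78 ± 0.29 with FCCP without passing (adjusted p = 0.144).

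The list of 14 genes named users of farnesyl and geranylgeranyl diphosphate also holds some whose products act later. RCE1, ICMT and ZMPSTE24 act on proteins already prenylated, and COQ2 uses the finished ubiquinone side chain. With FCCP 0 of 14 were called by edgeR (0 at an unadjusted p under 0.05, and 0 by DESeq2 or limma-voom). Of all genes, 1.6% were called higher there and 1.92% lower. With preconditioning 1 rose and 2 fell, where 10.5% of all genes were called higher and 13% lower. These counts are near the shares of all genes and do not set the list apart. When FCCP was added to preconditioning, 4 rose and 2 fell, where 19.2% of all genes were called lower. The share of all genes called higher there is not reported here. The list was not tested against the 9 enzymes. The median changes were −0.13 with FCCP, −0.15 with preconditioning and 0.22 when FCCP was added to preconditioning. FNTA, the shared subunit of the farnesyl and geranylgeranyl transferases, fell with preconditioning (−1.08 ± 0.18, adjusted p = 0.00226), as did the CAAX protease gene RCE1 (−0.97 ± 0.18, adjusted p = 0.00279), and ICMT rose (0.61 ± 0.21, adjusted p = 0.0441). With FCCP added to preconditioning, against preconditioning alone, FNTA (1.13 ± 0.18) and RCE1 (0.97 ± 0.18) rose, with adjusted p of 0.000263 and 0.000615. COQ2, of ubiquinone synthesis, was lower with both treatments than in control (−1.37 ± 0.24, adjusted p = 0.00107), and PDSS2, which makes the ubiquinone side chain, was higher (1.16 ± 0.21, adjusted p = 0.00156).

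ACAT1, the mitochondrial thiolase, changed by 0.31 ± 0.21 with preconditioning (adjusted p = 0.291), beside 1.92 for its cytosolic counterpart ACAT2. Whether these changes differ was not tested.

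**Figure D5:**
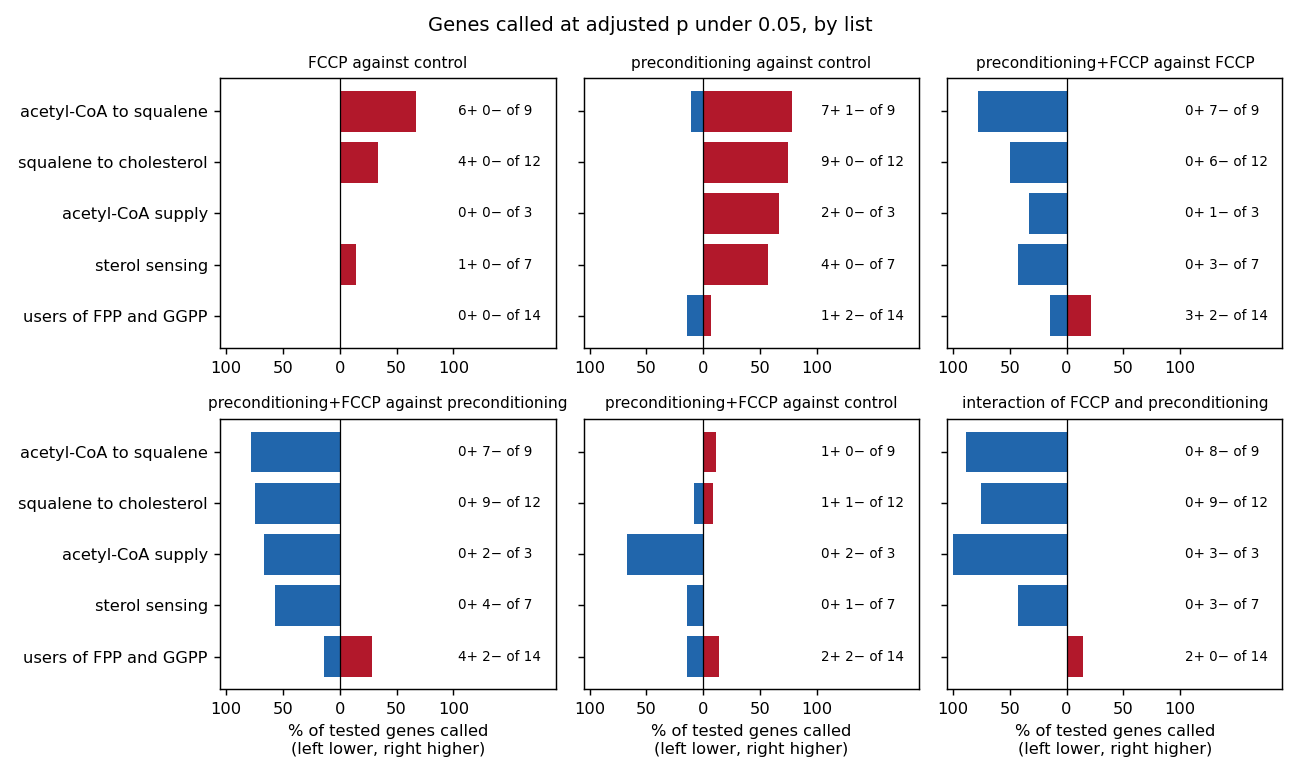
Share of tested genes of each list (rows) called higher (right) or lower (left) at an adjusted p under 0.05 in 6 comparisons (panels), in percent, with the counts beside each bar. Calls among the enzymes up to squalene (7 of 9 higher with preconditioning) and after it (9 of 12) point one way in most panels. The list labelled users of farnesyl diphosphate (FPP) and geranylgeranyl diphosphate (GGPP), some of which act later, has 0 to 6 of 14 called, in both directions in 4 of the panels. Of all genes, 10.5% were called higher and 13% lower with preconditioning, and 15% and 16.2% with both treatments against control. The lists were not tested against each other.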

How the data were processed

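The authors deposited raw counts of reads per gene for 13 poly-A RNA libraries, 1 table each. The submitters' processing notes name HISAT2, HTSeq and the build hg19. Versions, the annotation release and the strand setting are not given in the sources used here. Reads aligned to several places (3.16% to 11.5% of reads) and reads over more than 1 gene (11.0% to 12.4%) stand in rows that name no gene, as do those over no gene (2.13% to 5.20%), and these 5 rows were left out.

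Groups came from the labels. Counts were filtered with edgeR's filterByExpr (version 4.0.16, R 4.3.3), scaled by TMM, and fitted in 1 quasi-likelihood model of 13 libraries. Benjamini-Hochberg adjustment ran over all 16756 genes tested, and an adjusted p under 0.05 was called. Every adjusted p in the text is from this test unless another tool is named. Each SE was taken from the log2 change and its F statistic. The edgeR fit of preconditioning against control alone was also run on simulated counts. These held no library sets, and the outcome is not reported here. Alternatives included DESeq2 (1.42.0), limma-voom (3.58.1), other scalings and filters, and each library left out.

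The 9 genes are described in full. Of other genes, each pathway list gives up to 4 called genes with the smallest adjusted p per comparison (up to 2 where none was called), and the 5 nearest in profile are named. Which of these are given in the text, and the levels of ACLY and INSIG1, were chosen after their values were seen. Some genes of the lists are not reported here. Members and lists were chosen with earlier results of these data known.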

Additional observations from a re-analysis of the deposited data

Results flagged for a closer look

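Among the preconditioning libraries, HMGCS1 in preconditioning 3 (230.4 CPM) stood apart from the other libraries (464 to 483 CPM): its gap was 0.923 of the group's range, above Dixon's critical value for 4 samples. The check was made in that group alone, for 9 genes, and chance flags about 1 in 20 groups. Groups of 3 libraries were not checked.

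The FCCP effect differed between cells with and without preconditioning in 8 genes, by the interaction term. Its log2 values were −2.94 for ACAT2, −4.87 for HMGCS1, −2.55 for MVK, −1.47 for PMVK, −2.90 for MVD, −1.83 for IDI1, −2.43 for FDPS and −3.05 for FDFT1. These rest on the same fit and libraries as the report.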

How the results depend on the processing

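Of the 9 genes, 6 were called for FCCP against control. This became 0 with the compared groups alone, 0 at an adjusted p under 0.01, 0 within the higher set and 1 with the replicate number as a block (8 at an unadjusted p under 0.05). Leaving out each library gave 3 to 7, with 3 without FCCP 3. For preconditioning+FCCP against FCCP, 7 were called, 4 at an adjusted p under 0.01, 0 within the higher set, and 4 to 7 with each library left out, with 4 without FCCP 3. For preconditioning+FCCP against control, 1 was called. DESeq2 gave 2, the replicate block 2, the higher set 0, the lower set 3, and the fit without control 3, FCCP 1 and preconditioning+FCCP 3 together 4. Leaving out each library gave 1 to 2, with 2 without control 1, control 3, FCCP 1, FCCP 3 or preconditioning+FCCP 3. Counts stayed within 1.5 times the reported ones under every alternative run for the other comparisons: 8 for preconditioning against control (7 to 8 with each library left out), 7 for preconditioning+FCCP against preconditioning (7 in each) and 8 for the interaction (8 in each). No estimate for a called gene changed sign. Fits of the compared groups alone and within a set could not be made for the interaction. The cause of these moves was not tested.

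Same-numbered libraries did not deviate together: over 18 pairs the correlation of deviations ran from −0.20 to 0.16, with 1 over 0.1, so the numbers are not taken to pair samples. Over 45 pairs with other numbers, from different groups, it ran from −0.16 to 0.23, with 13 over 0.1. What such libraries share across groups was not tested. Scaling by library totals alone moved the median of all genes to 0.19 for preconditioning+FCCP against FCCP, from 0.01. The share of called genes that were higher moved there from 50.3% to 64.1%, for preconditioning+FCCP against control from 48% to 65.1%, for FCCP from 45.4% to 58% and for preconditioning from 44.7% to 55.2%. The members' counts with that scaling were 6, 6, 8, 7, 1 and 8 for preconditioning+FCCP against FCCP, FCCP, preconditioning, preconditioning+FCCP against preconditioning, preconditioning+FCCP against control and the interaction. Every member had at least 129 counts in every library, and groups held 3 or 4 libraries, which limits the precision of each comparison.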
